A study of Homo sapiens with 6 samples.

Results

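The 10 genes described here encode the integrin subunits by which epithelial cells hold on to their surroundings, 5 alpha subunits (ITGA2, ITGA3, ITGA5, ITGA6 and ITGAV) and 5 beta subunits (ITGB1, ITGB4, ITGB5, ITGB6 and ITGB8). They were taken by symbol from 28395 gene IDs counted in 6 RNA-seq libraries of the HCT116 line, which is an established line of human colorectal carcinoma. TR-107, an agonist of the mitochondrial protease ClpP, was given at 50 nM for 24 h to the cells of 3 libraries, and the vehicle, DMSO at 0.1%, was given for 24 h to the cells of the other 3. Both groups were grown in the same serum-containing medium, and the series describes the 3 libraries of each group as biological replicates. All results therefore come from 1 cell line in plate culture, at 1 dose and 1 time. The set was chosen by the TR-107 over DMSO fold changes of these same libraries: ITGB8 heads it because it was among the genes most reduced in TR-107 cells, and the other subunits were added by symbol with their fold changes in view. The members' TR-107 and DMSO values are for that reason a description: no p is given for a member, and where the calls of the fit over all genes are counted for the members, nothing is concluded from them.

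Integrins are receptors made of 1 alpha and 1 beta subunit that bind the extracellular matrix outside the cell and, for most beta subunits, the actin cytoskeleton inside it. In intestinal epithelium, the pairs of ITGB1 with ITGA3 or ITGA6 and the pair of ITGA6 with ITGB4 bind laminins of the basement membrane, and the last of these is the core of the hemidesmosome, which is tied to keratin filaments through plectin. The pair of ITGA2 with ITGB1 binds collagen and that of ITGA5 with ITGB1 binds fibronectin. ITGAV pairs with ITGB1, ITGB5, ITGB6 or ITGB8 and binds ligands with an arginine-glycine-aspartate sequence, and its pairs with ITGB6 and ITGB8 are known for releasing active TGF-beta from its latent complex.

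The beta subunits differ at the end of the protein that faces the cytoplasm, where talin binds to an asparagine-proline-any residue-tyrosine motif in most family members. The last 180 coding bases (60 codons) of 4 beta members are shown because ITGB8, the member with the largest difference between the groups, departs there from the other 3 shown. ITGB4 is left out because its cytoplasmic part is known to be far longer and unlike that of other beta subunits. They were read from GENCODE release 29 transcripts on GRCh38, 5′ to 3′ on each gene's own strand. Capitals mark in-frame codons that spell the motif: AAT or AAC, then CCN, then NNN, then TAT or TAC. Similar sites without the proline were not searched for and are not marked. The stretches lie at chr10:32901573-32908484 on the minus strand (ITGB1), chr3:124763626-124764477 on the minus strand (ITGB5), chr2:160101739-160107762 on the minus strand (ITGB6) and chr7:20409719-20409994 on the plus strand (ITGB8), each across 2 exons.
ITGB1: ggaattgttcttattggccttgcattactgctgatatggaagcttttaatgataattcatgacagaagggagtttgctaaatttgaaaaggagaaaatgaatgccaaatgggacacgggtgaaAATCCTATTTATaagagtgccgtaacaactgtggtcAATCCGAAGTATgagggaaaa
ITGB5: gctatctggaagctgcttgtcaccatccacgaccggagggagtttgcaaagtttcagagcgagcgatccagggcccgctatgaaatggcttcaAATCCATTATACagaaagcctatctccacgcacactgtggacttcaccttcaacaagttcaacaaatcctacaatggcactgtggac
ITGB6: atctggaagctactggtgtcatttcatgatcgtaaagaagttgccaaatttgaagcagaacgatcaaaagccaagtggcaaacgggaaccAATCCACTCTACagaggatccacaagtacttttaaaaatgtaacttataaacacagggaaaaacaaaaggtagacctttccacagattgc
ITGB8: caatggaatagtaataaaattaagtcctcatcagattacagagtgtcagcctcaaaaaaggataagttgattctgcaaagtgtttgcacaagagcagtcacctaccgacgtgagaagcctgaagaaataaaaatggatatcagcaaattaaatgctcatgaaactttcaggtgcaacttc
The motif stands in ITGB1 at 2 places, starting at codons 42 and 54 of the 60, and at 1 place each in ITGB5 and ITGB6, at codons 32 and 31. It was found 0 times in this stretch of ITGB8, and 0 times in its whole coding sequence. These letters describe the subunits and say nothing of how their transcripts were regulated.

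The span of each gene is given on GRCh38.p14 as RefSeq annotates it. ITGB8 (Gene ID 3696, chromosome 7, 20329766 to 20415754, plus strand) had 1.11, 0.986 and 2.28 CPM (reads of the gene relative to library size, after scaling by the trimmed mean of M-values) in the TR-107 libraries, against 8.83, 9.53 and 9.84 CPM in the DMSO libraries. Every TR-107 library lay below every DMSO library, and TR-107 replicate 3 held the highest value of its group. The means were 1.46 ± 0.716 CPM in TR-107 cells and 9.40 ± 0.519 CPM in DMSO cells (SD, n = 3 each), a log2 fold change of -2.65 with a standard error of 0.25, or 6.30-fold lower in TR-107 cells. These values rest on 19, 18 and 49 reads in the TR-107 libraries, against 165, 218 and 238 reads in the DMSO libraries. The exact Poisson 95% intervals, which cover counting error only, reached at most 3.02 CPM in a TR-107 library and went no lower than 7.53 CPM in a DMSO library. Among 13767 genes tested, ITGB8 stood at rank 29 from the lowest log2 fold change. Without TR-107 replicate 3, its log2 fold change was -3.16. In bulk RNA, fewer cells that express a gene and less RNA per cell cannot be told apart.

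The genes closest to ITGB8 in pattern, by the root-mean-square distance between mean-centred log2 CPM values over the 6 libraries among genes averaging at least 5 CPM, included RASSF2 (distance 0.286), LFNG (0.289), AXIN2 (0.35) and INSIG1 (0.364). RASSF2, which encodes a Ras-association domain protein, averaged 1.57 ± 0.680 CPM in TR-107 cells and 9.90 ± 1.11 CPM in DMSO cells. LFNG, a glycosyltransferase that modifies Notch receptors, averaged 2.34 ± 0.463 CPM in TR-107 cells and 13.2 ± 0.218 CPM in DMSO cells. AXIN2, a negative regulator and target gene of Wnt signalling, averaged 4.39 ± 1.10 CPM in TR-107 cells and 21.5 ± 1.71 CPM in DMSO cells. INSIG1, which holds the sterol-sensing SREBP complex in the endoplasmic reticulum, averaged 16.3 ± 1.41 CPM in TR-107 cells and 82.1 ± 5.65 CPM in DMSO cells. With 3 libraries on each side, this likeness comes mainly from a similar difference between the groups.

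ITGAV (Gene ID 3685, chromosome 2, 186590056 to 186680901, plus strand), the only known alpha partner of ITGB8, had 82.2, 90.7 and 99.4 CPM in the TR-107 libraries, against 79.1, 90.9 and 97.0 CPM in the DMSO libraries. The groups overlapped along nearly their whole range, and the log2 fold change was 0.03 with a standard error of 0.07. ITGB5 (Gene ID 3693, chromosome 3, 124761948 to 124901418, minus strand), another partner of ITGAV and a vitronectin receptor subunit, had 169, 175 and 187 CPM in the TR-107 libraries, against 140, 146 and 141 CPM in the DMSO libraries. Its groups did not overlap, and it averaged 177 ± 9.23 CPM in TR-107 cells and 142 ± 2.97 CPM in DMSO cells (log2 fold change 0.32, standard error 0.05). ITGB6 (Gene ID 3694, chromosome 2, 160099671 to 160200272, minus strand), the other TGF-beta-activating partner, had 1, 2 and 6 reads in the TR-107 libraries, against 0, 0 and 2 reads in the DMSO libraries. It did not pass the filter on low counts and was not tested, so no difference in it was detectable at this depth. Of the partners of ITGAV among the members, ITGB1 and ITGB5 were higher in TR-107 cells, ITGB8 was lower and ITGB6 was near 0.

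**Figure D1:**
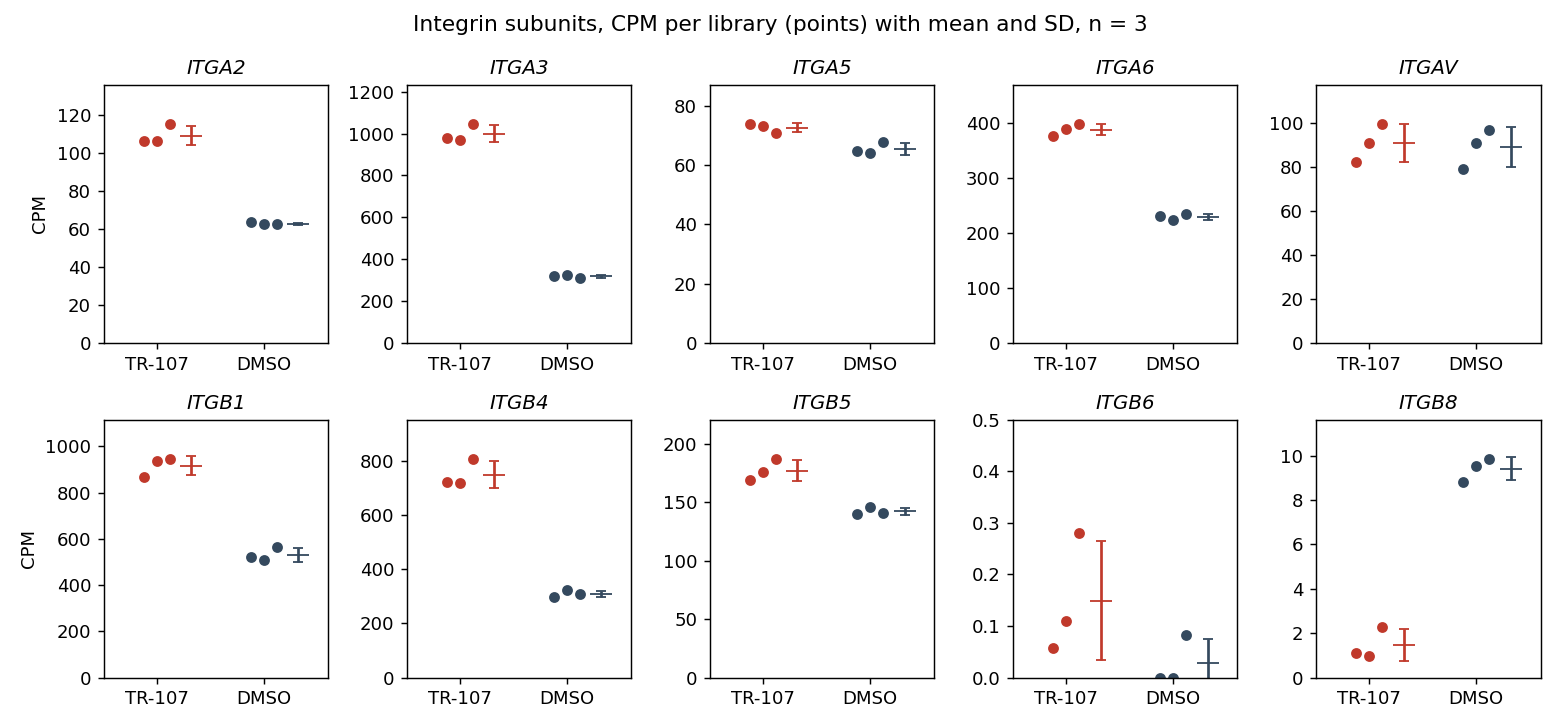
CPM of the 10 integrin members in each library (points), with TR-107 libraries on the left and DMSO libraries on the right of each panel, and the mean and SD of 3 libraries beside the points. The scale differs between panels. ITGB8 lies at or below 2.28 CPM in the TR-107 libraries and at or above 8.83 CPM in the DMSO libraries, ITGA3 and ITGB4 are separated the other way, and the points of ITGAV overlap.

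The laminin receptors differed most in the opposite direction. ITGA3 (Gene ID 3675, chromosome 17, 50056110 to 50090481, plus strand), the alpha subunit that pairs with ITGB1 to bind laminins, had 981, 969 and 1044 CPM in the TR-107 libraries, against 318, 325 and 311 CPM in the DMSO libraries. It averaged 998 ± 40.5 CPM in TR-107 cells and 318 ± 6.86 CPM in DMSO cells, 3.14-fold higher in TR-107 cells (log2 fold change 1.65, standard error 0.04). The lowest TR-107 library was far above the highest DMSO library, and ITGA3 stood at rank 322 from the highest log2 fold change.

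ITGB4 (Gene ID 3691, chromosome 17, 75721459 to 75757818, plus strand), the hemidesmosomal beta subunit, had 724, 719 and 807 CPM in the TR-107 libraries, against 298, 322 and 308 CPM in the DMSO libraries. The groups did not overlap, and the means of 750 ± 49.5 CPM in TR-107 cells and 309 ± 12.4 CPM in DMSO cells differed by a log2 fold change of 1.28 with a standard error of 0.04. Its partner ITGA6 (Gene ID 3655, chromosome 2, 172427336 to 172506459, plus strand) had 376, 389 and 397 CPM in the TR-107 libraries, against 230, 223 and 234 CPM in the DMSO libraries. ITGA6 was thus also higher in each TR-107 library, but by 1.69-fold, against 2.42-fold for ITGB4.

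ITGB1 (Gene ID 3688, chromosome 10, 32900318 to 32958230, minus strand), the shared beta subunit of the laminin, collagen and fibronectin receptors, had 869, 936 and 946 CPM in the TR-107 libraries, against 521, 508 and 565 CPM in the DMSO libraries. The collagen receptor subunit ITGA2 (Gene ID 3673, chromosome 5, 52989352 to 53094779, plus strand) had 106, 106 and 115 CPM in the TR-107 libraries, against 63.5, 62.6 and 62.5 CPM in the DMSO libraries. Both were separated between the groups by nearly the same factor, 1.73-fold for ITGB1 and 1.74-fold for ITGA2. The fibronectin receptor subunit ITGA5 (Gene ID 3678, chromosome 12, 54395261 to 54419266, minus strand) had 73.7, 73.1 and 70.8 CPM in the TR-107 libraries, against 64.8, 63.9 and 67.7 CPM in the DMSO libraries. Its separation was small, 1.11-fold, and it was not called in 7 of 16 alternative ways of processing.

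Counted over the set, 9 of the 10 members passed the filter on low counts, and in the fit over all genes (edgeR's quasi-likelihood test at an adjusted p under 0.05) 7 of them stood among the genes called higher in TR-107 cells, 1 among those called lower and 1 among those not called. Across all 13767 genes tested, 57.8% were called, 29.2% higher and 28.6% lower in TR-107 cells. At least 2-fold higher and called were ITGA3 and ITGB4, as were 6.55% of all genes tested, and at least 2-fold lower was ITGB8, as were 3.71%. The libraries of the groups did not overlap for 7 members that were higher and 1 that was lower in TR-107 cells; over all genes tested, 62.4% did not overlap, 31.5% being higher and 30.9% lower in TR-107 cells. The median log2 fold change of the tested members was 0.76, against 0.01 over all genes tested. Because the members were chosen by this contrast, these counts are no test of them and nothing is read from them. TR-107 replicate 3 was the highest library of its group for 9 of the 10 members, and the part of this in the members' spread was not tested.

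**Figure D2:**
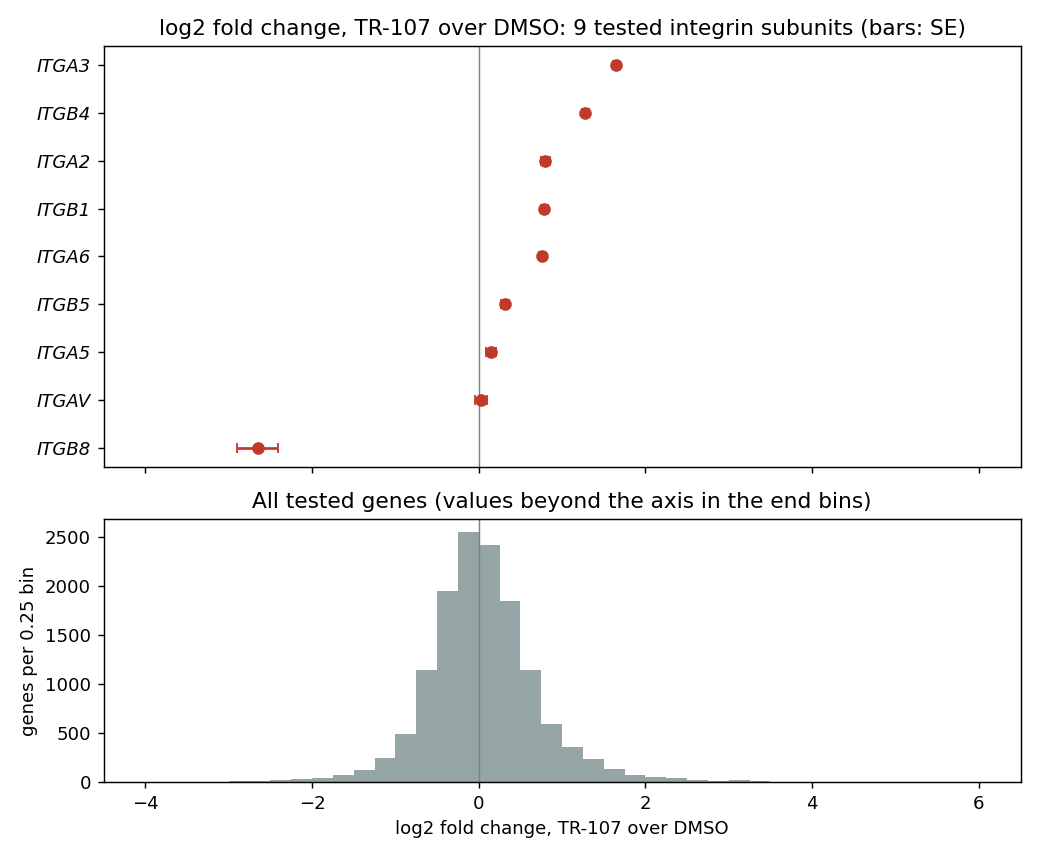
Log2 fold change, TR-107 over DMSO, of the 9 tested integrin members (points) with 1 standard error, and the distribution of log2 fold changes over all 13767 genes tested. ITGB8 lies at -2.65, ITGAV at 0.03, and the other 7 members lie between 0.15 and 1.65.

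To compare levels between subunits, CPM was divided by the length of each gene's merged GENCODE 29 exons, which is not necessarily the annotation the authors counted with. On this scale of CPM per kilobase, ITGB1 was highest in TR-107 cells, at 153 ± 6.92, followed by ITGB4 at 111 ± 7.33, ITGA3 at 102 ± 4.13, ITGA6 at 59.3 ± 1.6, ITGB5 at 27.4 ± 1.43, ITGA2 at 13.8 ± 0.650, ITGAV at 11.1 ± 1.05, ITGA5 at 9.57 ± 0.198, ITGB8 at 0.0963 ± 0.0472 and ITGB6 at 0.0318. In DMSO cells the order was ITGB1 at 88.4 ± 4.96, ITGB4 at 45.7 ± 1.84, ITGA6 at 35.0 ± 0.863, ITGA3 at 32.5 ± 0.700, ITGB5 at 22.1 ± 0.461, ITGAV at 10.8 ± 1.10, ITGA5 at 8.64 ± 0.265, ITGA2 at 7.95 ± 0.0646, ITGB8 at 0.620 ± 0.0342 and ITGB6 at 0.00588. Neighbours in each order had separate library ranges except ITGB4 and ITGA3 in TR-107 cells, which overlapped. ITGA3 stood above ITGA6 in TR-107 cells and below it in DMSO cells, and ITGA2 stood above ITGAV and ITGA5 in TR-107 cells and below both in DMSO cells. With coding length in place of exon length, ITGA3 was second and above ITGA6 in both groups, and ITGB4 was at rank 3 in TR-107 cells and rank 5 in DMSO cells.

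**Figure D3:**
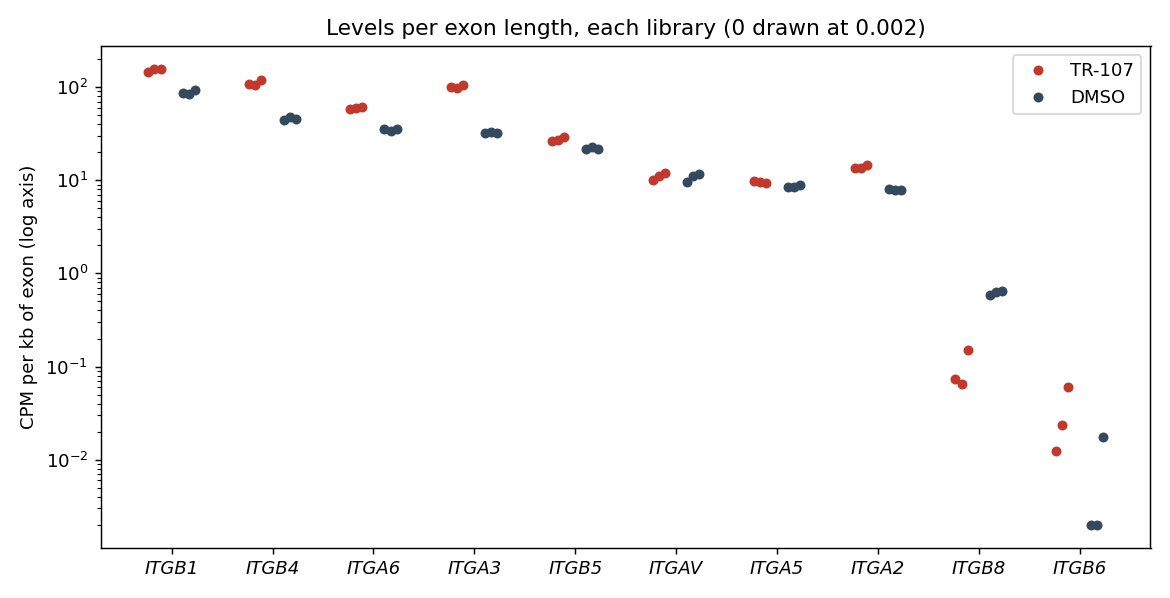
Level of each integrin member per kilobase of merged exon, in CPM per kilobase on a log axis, with TR-107 libraries beside DMSO libraries. ITGB1, ITGB4, ITGA3 and ITGA6 are the most abundant transcripts in both groups, and ITGB8 and ITGB6 lie lowest in both.

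The make-up of the pool moved with these differences. Summed over the beta members, the level per length was 291 ± 14.1 CPM per kilobase in TR-107 cells and 157 ± 4.71 in DMSO cells. ITGB4 made up 38.1 ± 1.20% of that sum in TR-107 cells and 29.2 ± 1.33% in DMSO cells, while ITGB5 made up 9.43 ± 0.0409% in TR-107 cells and 14.1 ± 0.527% in DMSO cells. ITGB8 was a minor transcript in either case, 0.0327 ± 0.0145% of the beta sum in TR-107 cells and 0.395 ± 0.0128% in DMSO cells. Per coding length, which is a much smaller part of the exons of ITGB8 than of ITGB4, the share of ITGB8 was 0.106 ± 0.0473% in TR-107 cells and 1.19 ± 0.043% in DMSO cells, and that of ITGB4 was 23.1 ± 0.888% in TR-107 cells and 16.6 ± 0.882% in DMSO cells. Over the alpha members, the sum was 196 ± 6.77 CPM per kilobase in TR-107 cells and 94.9 ± 1.15 in DMSO cells. ITGA3 made up 52.1 ± 0.613% of it in TR-107 cells and 34.2 ± 1.05% in DMSO cells, and ITGAV 5.65 ± 0.363% in TR-107 cells and 11.4 ± 1.04% in DMSO cells. The ratio of ITGA3 to ITGA6 was 1.72 ± 0.0495 in TR-107 cells and 0.928 ± 0.0428 in DMSO cells per exon length, and 2.73 ± 0.0788 in TR-107 cells and 1.48 ± 0.0681 in DMSO cells per coding length, so which of the 2 was more abundant in DMSO cells depends on the length used. These are shares of transcript, not of receptor pairs at the cell surface.

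The remaining integrin subunits were low in both groups, their summed level being 22.2 to 26.9 CPM in the TR-107 libraries and 30.4 to 32.2 CPM in the DMSO libraries. Of 16 further subunits listed, 7 passed the filter, and by edgeR's quasi-likelihood test 0 were called higher (29.2% of all genes) and 2 lower (28.6%, the same share as among all genes) in TR-107 cells, with a median log2 fold change of 0.01. None was higher at an unadjusted p under 0.05, and 0 were called higher by DESeq2 or by limma-voom. ITGAE, which pairs with ITGB7 on lymphocytes of epithelia, fell to 12.8 ± 1.88 CPM in TR-107 cells, against 17.5 ± 1.64 CPM in DMSO cells (edgeR adjusted p = 0.00257). ITGA7, a laminin-binding subunit of muscle, averaged 4.67 ± 0.518 CPM in TR-107 cells and 6.69 ± 1.73 CPM in DMSO cells (edgeR adjusted p = 0.033). The ITGA7 call was lost without TR-107 replicate 2 (edgeR adjusted p = 0.111), TR-107 replicate 3 (0.0604) or DMSO replicate 3 (0.308), which left 1 subunit called lower. Both genes are uncertain because they overlap others: over the 6 libraries HASPIN had 3988 reads beside the 1865 of ITGAE, and BLOC1S1 had 935 and TMT1B 956 beside the 710 of ITGA7. The ITGB7 transcript itself averaged 1.64 ± 0.296 CPM in TR-107 cells and 1.19 ± 0.345 CPM in DMSO cells.

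Among the ligands, 6 of the 10 laminin chains tested rose in TR-107 cells, LAMB3 and LAMA3 among them, and 1, LAMB1, fell. Of 24 tested genes among 35 laminins and other matrix ligands, 10 rose (41.7%, against 29.2% of all genes) and 5 fell (20.8%, against 28.6%) in TR-107 cells, and the list's median log2 fold change was 0.23. LAMB3, the beta chain of the laminin found beneath hemidesmosomes, had 272, 282 and 282 CPM in the TR-107 libraries, against 54.2, 52.9 and 52.9 CPM in the DMSO libraries. This separation was wide against a spread of 5.62 CPM among TR-107 libraries and 0.734 CPM among DMSO libraries (log2 fold change 2.39, standard error 0.05, edgeR adjusted p = 6.19e-35). LAMA3, an alpha chain found in the same laminin, rose to 12.6 ± 1.92 CPM in TR-107 cells, against 6.58 ± 0.0908 CPM in DMSO cells (edgeR adjusted p = 3.2e-06).

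LAMA5 and LAMB2, which with LAMC1 make a laminin of epithelial basement membranes, rose to 481 ± 18.2 CPM and 110 ± 2.0 CPM in TR-107 cells, against 304 ± 24.8 CPM and 59.8 ± 1.02 CPM in DMSO cells. LAMC1 rose to 211 ± 5.87 CPM in TR-107 cells, against 147 ± 3.38 CPM in DMSO cells. HSPG2, the basement membrane proteoglycan perlecan, rose to 72.4 ± 5.45 CPM in TR-107 cells, against 44.8 ± 3.97 CPM in DMSO cells (edgeR adjusted p = 4.46e-11). LAMB1, which takes the place of LAMB2 in other widespread laminins, fell to 29.9 ± 0.703 CPM in TR-107 cells, against 40.1 ± 0.654 CPM in DMSO cells (edgeR adjusted p = 2.94e-05). THBS1, a thrombospondin that can also activate TGF-beta, fell to 27.2 ± 0.634 CPM in TR-107 cells, against 53.0 ± 3.35 CPM in DMSO cells (edgeR adjusted p = 1.06e-13). FN1, fibronectin, fell to 6.61 ± 1.77 CPM in TR-107 cells, against 10.8 ± 0.744 CPM in DMSO cells, although its annotated span overlaps ATIC, which had more reads. NPNT, nephronectin, fell by 0.72 on the log2 scale, and FBN1, fibrillin, averaged 0.623 ± 0.506 CPM in TR-107 cells and 1.73 ± 0.324 CPM in DMSO cells, a call lost without TR-107 replicate 1, TR-107 replicate 3, DMSO replicate 1 or DMSO replicate 2.

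**Figure D4:**
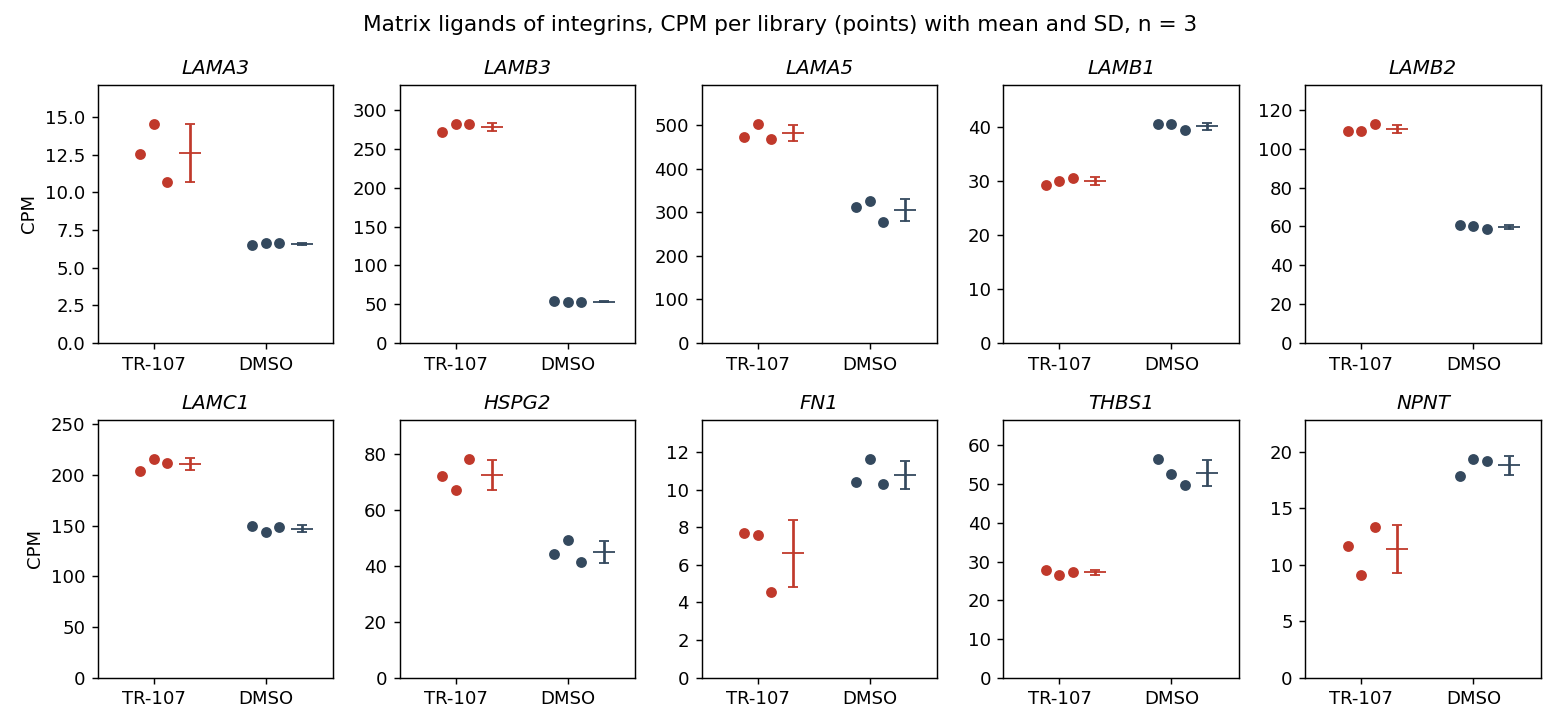
CPM of 10 integrin ligands in each library (points), TR-107 on the left and DMSO on the right, with the mean and SD of 3 libraries. LAMA3, LAMB3, LAMA5, LAMB2, LAMC1 and HSPG2 are higher in the TR-107 libraries, and LAMB1, FN1, THBS1 and NPNT are lower.

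Transcripts of integrin activators and adhesion adaptors, a list that also holds signalling kinases, included the kinases FYN and PTK2B, which rose. Those of the tensins TNS1 and TNS3 fell. Of 39 tested activators and adhesion adaptors, 17 rose (43.6%, against 29.2% of all genes), 6 fell (15.4%, against 28.6%) and 16 were not called; the list median was 0.15 on the log2 scale. The tyrosine kinase FYN, which phosphorylates adhesion proteins, had 31.7, 30.4 and 36.9 CPM in the TR-107 libraries, against 10.4, 9.31 and 8.60 CPM in the DMSO libraries (a 3.51-fold rise, edgeR adjusted p = 1.43e-17). PTK2B, a kinase related to focal adhesion kinase, rose to 26.5 ± 2.68 CPM in TR-107 cells, against 9.67 ± 0.554 CPM in DMSO cells, with TRIM35 overlapping it. Testin (TES), paxillin (PXN) and PDLIM7, which are LIM-domain proteins of adhesions, rose by 1.02, 0.83 and 0.70 on the log2 scale. Kindlin-1 (FERMT1) rose to 145 ± 1.08 CPM in TR-107 cells, against 102 ± 4.17 CPM in DMSO cells, and talin (TLN1) to 370 ± 4.95 CPM in TR-107 cells, against 318 ± 9.11 CPM in DMSO cells. The tensins TNS1 and TNS3, which link integrin tails to actin in mature adhesions, fell by 1.15 and 0.39 on the log2 scale, as did PDLIM5 by 0.41. TNS2, which overlaps SPRYD3, a gene with more reads, fell by 0.33, a call lost without TR-107 replicate 1 or DMSO replicate 3. The tensin TNS4 averaged 61.2 ± 0.582 CPM in TR-107 cells and 65.3 ± 2.72 CPM in DMSO cells and was not called.

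Among 10 tested genes listed as restraining integrins, 2 rose (20%, against 29.2% of all genes) and 5 fell (50%, against 28.6%), around a list median of -0.17 on the log2 scale. FLNA, which competes with talin for beta tails and also crosslinks actin, rose to 2093 ± 93.9 CPM in TR-107 cells, against 1482 ± 46.5 CPM in DMSO cells (edgeR adjusted p = 2.34e-15). KANK2, a talin-binding protein, fell to 34.3 ± 0.369 CPM in TR-107 cells, against 63.3 ± 2.49 CPM in DMSO cells. The GDP-dissociation inhibitor ARHGDIA fell by 0.63, RAP1GAP, which turns off the integrin activator Rap1, by 0.76, and ITGB1BP1, which binds the tail of ITGB1 and overlaps ASAP2, by 0.47 on the log2 scale.

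Partners at the membrane went both ways, 7 of 18 tested rising (38.9%, against 29.2% of all genes) and 8 falling (44.4%, against 28.6%), around a list median of 0.04. PLEC, plectin, which ties ITGB4 to keratins, had 2850, 2791 and 2883 CPM in the TR-107 libraries, against 1240, 1331 and 1149 CPM in the DMSO libraries, a 2.29-fold rise without overlap (edgeR adjusted p = 1.9e-25). The other hemidesmosome genes went different ways. ERBIN, from the same list, rose to 199 ± 13.2 CPM in TR-107 cells, against 143 ± 3.08 CPM in DMSO cells (edgeR adjusted p = 2.52e-11). DST, which encodes plakins such as BP230, fell to 151 ± 9.88 CPM in TR-107 cells, against 181 ± 13.6 CPM in DMSO cells. COL17A1 (2.27 ± 0.304 CPM in TR-107 cells and 1.97 ± 0.209 CPM in DMSO cells) was not called. Nor was the tetraspanin CD151 (234 ± 4.97 CPM in TR-107 cells and 237 ± 13.4 CPM in DMSO cells). PLAUR, the urokinase receptor, which associates with integrins, rose 3.05-fold, and SLC3A2, a heavy chain of amino acid transporters that binds beta tails, rose 2.12-fold. LGALS3, the lectin galectin-3, rose 2.04-fold. CD44, the hyaluronan receptor, and the tetraspanins TSPAN14 and CD81 fell by 0.35, 0.33 and 0.30 on the log2 scale.

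Genes for the folding, cleavage and traffic of integrins were called about as often as other genes: 7 of 27 rose (25.9%, against 29.2% of all genes), 8 fell (29.6%, against 28.6%) and the list median was -0.07. With library size alone as scaling, 13 were called lower. The chaperone CALR fell to 577 ± 16.4 CPM in TR-107 cells, against 1019 ± 9.66 CPM in DMSO cells (edgeR adjusted p = 1.27e-22). ARRDC3, an arrestin-domain protein known to promote the degradation of ITGB4, rose to 62.9 ± 4.54 CPM in TR-107 cells, against 25.5 ± 0.266 CPM in DMSO cells (edgeR adjusted p = 2.7e-18). RAB5A, RAB25 and the endocytic adaptor NUMB rose by 0.77, 0.51 and 0.51 on the log2 scale. RAB27B, MGAT5, which adds branches to N-glycans, RAB7A and RAB11A fell by 1.34, 0.39, 0.35 and 0.34.

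In cells whose TGF-beta receptors work, the TGF-beta pathway lies downstream of the pair that ITGB8 forms with ITGAV. Of 7 tested genes for storing and activating TGF-beta, 3 rose (42.9%, against 29.2% of all genes) and 1 fell (14.3%, against 28.6%), and the list median was 0.20. The ligand TGFB1 fell to 55.5 ± 3.82 CPM in TR-107 cells, against 77.1 ± 1.48 CPM in DMSO cells (edgeR adjusted p = 3.25e-08). The latent TGF-beta binding proteins LTBP4 and LTBP3 rose by 0.63 and 0.59 on the log2 scale, LTBP3 overlapping another counted gene, and LTBP2 rose by 0.73, a call lost without TR-107 replicate 3 or DMSO replicate 3.

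Of 14 receptors and SMADs, 6 rose (42.9%, against 29.2% of all genes) and 4 fell (28.6%, the same share as among all genes), and the list median was 0.11. The co-receptor TGFBR3 fell to 3.68 ± 0.861 CPM in TR-107 cells, against 12.1 ± 0.721 CPM in DMSO cells, and TGFBR2, the ligand-binding receptor, to 31.0 ± 3.29 CPM in TR-107 cells, against 47.1 ± 1.81 CPM in DMSO cells. The inhibitory SMAD6 had 0.759, 1.15 and 0.979 CPM in the TR-107 libraries, against 5.35, 5.42 and 3.10 CPM in the DMSO libraries (4.75-fold lower, edgeR adjusted p = 2.49e-07). SMURF2, a ubiquitin ligase for the receptors, SMAD3 and SMAD4 rose by 0.87, 0.52 and 0.25 on the log2 scale, whereas the repressor SKI fell by 0.49. These are transcript levels, and whether the receptors are functional in this line was not tested.

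Of 11 tested TGF-beta target genes, 8 rose (72.7%, against 29.2% of all genes) and 0 fell (against 28.6%), and the list median was 0.63. The lists share genes: SKIL and SMAD7 were also counted among the receptors and SMADs, LTBP2 among the storing and activating genes, and CCN2 among the matrix ligands. No target gene was lower at an unadjusted p under 0.05 in edgeR's quasi-likelihood test, and 0 were called lower by DESeq2 or by limma-voom. SKIL, a repressor of SMADs that is induced by TGF-beta, averaged 34.5 ± 3.93 CPM in TR-107 cells and 16.1 ± 0.791 CPM in DMSO cells. It rose 2.14-fold, without overlap between the groups (edgeR adjusted p = 1.73e-12), and CDKN2B, a cell cycle inhibitor whose span overlaps an antisense RNA, rose 2.32-fold. The transcription factors JUNB, which overlaps HOOK2, and TGIF1 rose by 0.62 and 0.52 on the log2 scale. SMAD7, an inhibitory SMAD and also a target, averaged 6.26 ± 0.222 CPM in TR-107 cells and 6.72 ± 1.56 CPM in DMSO cells and was not called. Each of these targets also answers to other pathways. Neither TGF-beta activity nor the cells' ability to respond to it was measured, so the rises cannot be assigned to TGF-beta.

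**Figure D5:**
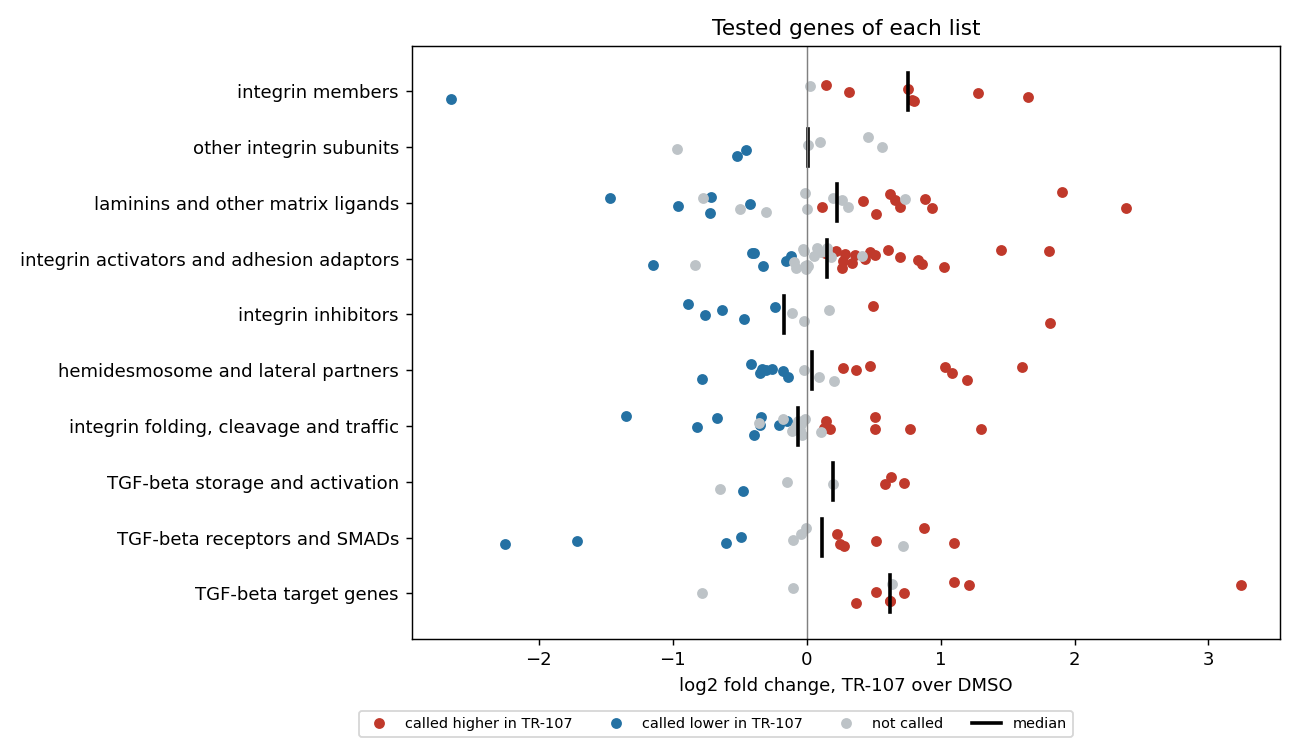
Log2 fold change, TR-107 over DMSO, of every tested gene in the integrin members and 9 further lists, with the median of each list as a vertical bar. Points called higher or lower in TR-107 cells are coloured, and genes not called are grey. ITGB8 at -2.65 lies farthest left.

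The cells kept the markers of the labelled type. All 10 epithelial markers were tested: 8 rose (80%, against 29.2% of all genes) and 0 fell (against 28.6%). The count that fell was 0 also at an unadjusted p under 0.05 in edgeR, and 0 by DESeq2 or limma-voom. The summed level of the 10 was 6574 to 6753 CPM in TR-107 cells and 5655 to 5692 CPM in DMSO cells. EPCAM averaged 396 ± 9.07 CPM in TR-107 cells and 381 ± 13.8 CPM in DMSO cells, and CDH1 rose to 153 ± 7.61 CPM in TR-107 cells, against 88.3 ± 2.49 CPM in DMSO cells. Of 10 fibroblast markers, 6 were at 0 in every library. The sum of the 10, nearly all of it COL1A1, was 16.2 to 18.3 CPM in TR-107 cells and 13.3 to 16.6 CPM in DMSO cells. The 7 endothelial markers summed to 0.493 to 1.34 CPM in TR-107 cells and 0.331 to 0.918 CPM in DMSO cells. Of 8 leukocyte markers, 4, PTPRC, CD3E and NKG7 among them, were at 0 in every library, and the sum, mostly the lysosomal CD68, was 10.4 to 15.0 CPM in TR-107 cells and 4.85 to 6.91 CPM in DMSO cells.

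The libraries held 17264039 to 22243758 counts in TR-107 cells and 18344471 to 23708135 counts in DMSO cells. Overlapping genes could share reads with 3 members. ITGB8-AS1 had 0, 0 and 3 reads in the TR-107 libraries and 0, 1 and 4 reads in the DMSO libraries, few beside those of ITGB8. GPR84-AS1, whose span contains that of ITGA5, had 2, 1 and 5 reads in the TR-107 libraries and 0, 3 and 8 reads in the DMSO libraries. GALK1, on the strand opposite ITGB4, had 221, 227 and 311 reads in the TR-107 libraries and 497, 577 and 628 reads in the DMSO libraries, lower in TR-107 cells where ITGB4 was higher. The part of shared reads in the values was not tested.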

How the data were processed

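Each of the 6 deposited files gives raw read counts per gene. The submitters' processing notes list featureCounts, HISAT2, Trimmomatic, FastQC and the build hg38. The gene annotation and the settings for strand and multi-mapped reads were not given in the sources used here, so genes that overlap others are uncertain. Poly(A) RNA was sequenced in pairs, per the labels' protocols.

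Of 28395 IDs, 27745 matched an NCBI RefSeq symbol (GRCh38.p14). Totals were 17264039 to 23708135 counts per library. Genes were tested by quasi-likelihood in edgeR 4.0.16 (R 4.3.3), with TMM scaling, filterByExpr, a robust fit, the group alone as design, and Benjamini-Hochberg adjustment at 0.05 over 13767 genes. CPM used TMM-scaled library sizes, and errors are SDs over 3 libraries. Lengths came from GENCODE 29. The pairs of libraries all differed beyond sampling noise.

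The members and all gene lists were chosen with earlier results of these data known. Named are the members, genes overlapping them, the 4 genes per direction with the smallest p in each list plus those changed at least 2-fold, and the 5 genes most like ITGB8, except a few genes under these rules that are not reported here; the remaining matrix ligands, adaptors and markers in the text were added for their role. DESeq2 1.42.0, limma-voom (limma 3.58.1), other scalings and filters and left-out libraries were alternatives. On simulated TR-107 and DMSO counts of 13545 genes, 70.1% of 1.5-fold, 86.6% of 2-fold and 100% of 4-fold changes were called, and 0.105% of unchanged genes. Only 200 genes were changed there, all above a minimum mean count, whereas 57.8% of genes were called in the data. These rates therefore need not hold for the fit to the data.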

Additional observations from a re-analysis of the deposited data

How the results depend on the processing

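Over 16 alternatives, no result reversed. ITGB8 was lower in TR-107 cells in each, with log2 fold changes from -3.16 to -2.44, whereas ITGAV, never called, ran from -0.06 to 0.09. The members called higher numbered 7, or 6 in 7 alternatives in which ITGA5 missed the threshold. The count of other integrin subunits called lower, 2, was 1 with limma-voom and 1 to 2 when 1 library was left out; it was 1 without TR-107 replicate 2, TR-107 replicate 3 or DMSO replicate 3. The count of folding, cleavage and traffic genes called lower, 8, was 13 with library size alone, a scaling that set the median log2 fold change of all genes at -0.05, against 0.01 with the scaling used throughout; the cause was not tested. The replicate numbers did not pair the libraries: correlations between same-numbered libraries were -0.031, -0.018 and 0.049. A replicate block gave 3976 genes higher and 3942 lower in TR-107 cells, against 4015 and 3941 without it. The low read counts of ITGB6 and ITGB8 limit what can be said of their levels.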
